A study of Drosophila melanogaster with 9 samples.

Results

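The 10 genes described here set the identity of follicle cells, the somatic epithelium that surrounds each germline cyst in the fly ovary, or carry the Notch signal that these cells receive. They are the transcription factor genes ct, slbo, cas, eya, ttk, peb and tj, the adhesion gene Fas3, the receptor gene N and the ligand gene Dl. They were chosen by name, and all 10 were found by symbol among the 17199 genes of the table. All 10 also had an adjusted p, as did 10662 genes in all. Total RNA of ovaries depleted of ribosomal RNA was sequenced from 3 Drosophila melanogaster lines, with 3 libraries in each. The M6stop line carries an edited allele of Pcif1, a gene whose product associates with RNA polymerase II, with a frameshift that leads to an early stop codon. The F9ΔNLS line carries an edited allele that lost the nuclear localization signal in frame and encodes 829 amino acids. In the control line BG02557 a P-element sits within the first Pcif1 intron, so no line in the series has an unaltered Pcif1 locus. Both alleles were made in the w1118 background and were then crossed to the BG02557 line for up to 10 generations. Ovaries were collected as 3 pairs per line, the labels give no age of the flies, and the submitters describe the libraries as biological replicates. Each comparison asks which ovarian transcripts differ between a mutant line and the BG02557 line.

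Notch is a receptor that is cut after it binds a ligand on a neighbouring cell, and the freed inner part enters the nucleus and switches genes on together with Su(H). In the egg chamber the germ line presents Delta to the follicle cells, which then leave the mitotic cycle, replicate their DNA without dividing, repress cut and express the zinc finger protein Hindsight. Earlier Notch signals set apart the polar cells and stalk cells, and slow border cells marks the group that later migrates through the egg chamber.

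The sources do not tie single libraries to lines, so each gene has 1 mean level over all libraries and, for each mutant line, 1 log2 fold change over BG02557 and 1 adjusted p, all from the authors' deposited table. These values carry no standard error, and the spread between libraries is not shown here. The words rose and fell are kept for genes whose DESeq2 adjusted p in that table was under 0.05. Tested genes with a mean under 50 normalized counts had a median absolute log2 fold change of 0.0098 in M6stop and 0.04 in F9ΔNLS per the authors' deposited table. With a mean of 50 or more these medians were 0.04 in M6stop and 0.14 in F9ΔNLS per the authors' deposited table, so listed values near 0 are not read here as small changes. As a check of the alleles, Pcif1 is listed with a mean of 3326 normalized counts and a log2 value of -2.51 in M6stop (DESeq2 adjusted p = 0) per the authors' deposited table. Its log2 fold change in F9ΔNLS was 0.02, with a DESeq2 adjusted p of 0.83 per the authors' deposited table.

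In F9ΔNLS ovaries 5 of the 10 genes rose and 0 fell. Across all tested genes 23.4% were called in that line, 11.6% upward and 11.9% downward. The genes that rose were tj, Fas3, eya, ct and Dl, by 0.25 to 0.53 on the log2 scale per the authors' deposited table. The other 5, ttk, N, slbo, cas and peb, had log2 fold changes of 0.005 to 0.18 per the authors' deposited table and did not pass. In M6stop ovaries 0 of the 10 genes were called by DESeq2, against 5.52% of all tested genes (3.48% upward and 2.04% downward), with log2 fold changes of -0.14 to 0.22 per the authors' deposited table. At least 1 of the 10, ct, had an unadjusted p under 0.05 in M6stop, as rebuilt from the DESeq2 adjusted values. The median log2 fold change of the 10 was 0.01 in M6stop and 0.21 in F9ΔNLS, beside -0.0007 and 0.004 over all tested genes per the authors' deposited table. Both comparisons use the same 3 control libraries, and no test set the mutant lines against each other. Ovaries hold many cell types, and more RNA per cell cannot be told apart here from a larger share of the cells that express a gene. For Dl those cells include the germ line.

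**Figure D1:**
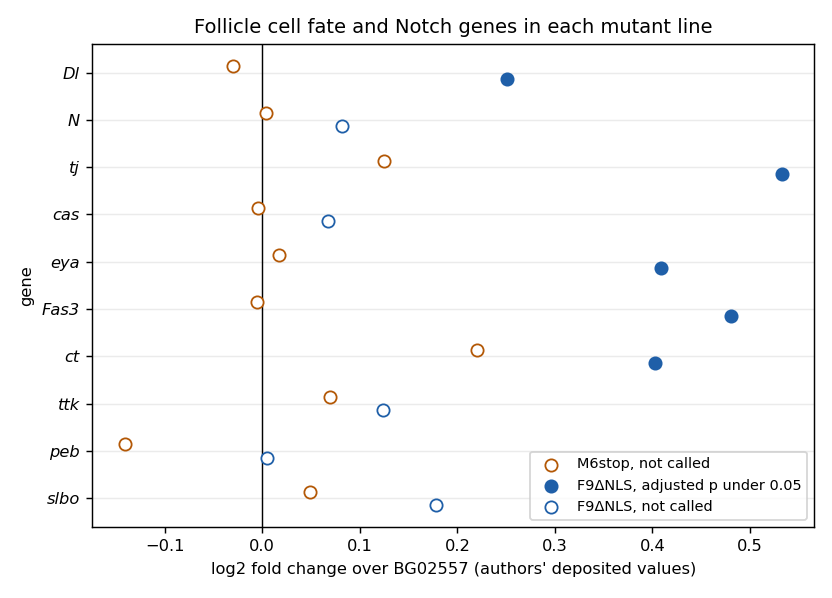
Log2 fold change of each of the 10 genes (vertical axis) over BG02557 (horizontal axis) in M6stop and F9ΔNLS, as the authors deposited it, with filled points for an adjusted p under 0.05. The 5 filled points are all of F9ΔNLS and lie between 0.25 and 0.53, and the M6stop points lie between -0.14 and 0.22.

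The levels of the 10 genes in the ovary, all lines together, spanned a wide range. Per kb of annotated exon, tj had the highest mean at 876 normalized counts, followed by N at 729, ttk at 674, Dl at 453 and peb at 329. Next came eya at 198, Fas3 at 193 and ct at 87.6 normalized counts per kb. The lowest were slbo at 16.7 and cas at 9.79 normalized counts per kb. Neighbours in this order, such as eya and Fas3, cannot be separated, since the table gives no spread. Per kb, tj stood above 83.6% of tested genes with an annotated length, and cas above 13.7%. The counts behind these values differ too, and per the authors' deposited table the means per gene, not corrected for length, ran up to 7397 normalized counts for N and down to 30.8 for cas.

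**Figure D2:**
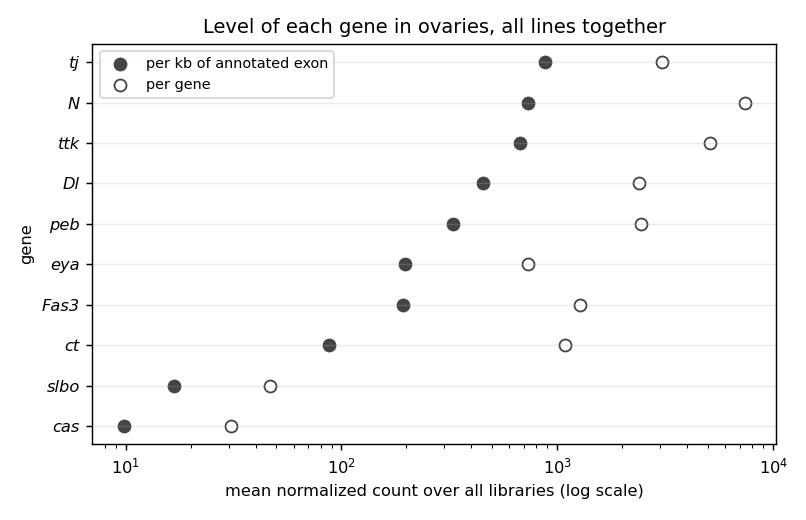
Mean normalized count over all libraries of each gene (log axis), per kb of annotated exon (filled) and per gene (open), ordered by the value per kb. Traffic jam is highest at 876 per kb, and slow border cells and castor stand apart at 16.7 and 9.79 per kb.

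All 10 are protein-coding genes, with 3 on X, 3 on 2L, 3 on 3R and 1 on 2R. They span 2.8 kb (slbo) to 73.3 kb (Fas3) and have 2 to 8 annotated transcripts. No annotated exon of any of the 10 overlaps an exon of another gene on either strand, so their reads are not shared with an overlapping gene in this annotation.

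Dl and N form the ligand and receptor pair of the pathway. Dl (FBgn0000463, 3R from 19302731 to 19326217, minus strand, BDGP6) encodes Delta, the ligand that germline cells show to the follicle cells. The table's description column calls this row dorsal, but its identifier, chromosome and symbol are those of Delta. Dl had a mean of 2389 normalized counts and rose by 0.25 in F9ΔNLS, a 1.19-fold change (DESeq2 adjusted p = 0.028), per the authors' deposited table. The value for Dl in M6stop was -0.03 (DESeq2 adjusted p = 0.87) per the authors' deposited table. N (FBgn0004647, X from 3134870 to 3172221, plus strand) encodes the receptor, a single-pass membrane protein, and had a mean of 7397 normalized counts. Its log2 fold change was 0.0037 in M6stop (DESeq2 adjusted p = 0.96) and 0.08 in F9ΔNLS (DESeq2 adjusted p = 0.59) per the authors' deposited table. The ligand was thus called upward in F9ΔNLS and the receptor was not, and the difference between these genes was not tested.

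The somatic identity gene tj was the one with the largest log2 fold change of the 10 in F9ΔNLS. It encodes Traffic jam, a large Maf factor found in the somatic cells of the gonad (FBgn0000964, 2L from 19464267 to 19467758, plus strand). In the authors' deposited table tj rose by 0.53, or 1.45-fold, in F9ΔNLS (DESeq2 adjusted p = 0.0017) at a mean of 3060 normalized counts. This exceeded the log2 fold change of 96.4% of tested genes in that line. Of the 10, tj alone also passes at an adjusted p under 0.01. Its log2 fold change in M6stop was 0.12 (DESeq2 adjusted p = 0.39) per the authors' deposited table.

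Of the 3 genes tied to early follicle cells or to the choice for or against polar and stalk fate, Fas3 and eya rose in F9ΔNLS and cas did not pass. Fas3 (FBgn0000636, 2L from 18320102 to 18393441, plus strand) encodes Fasciclin 3, a homophilic adhesion protein of young follicle cells that later stays high in polar cells. It rose by 0.48, or 1.40-fold, in F9ΔNLS (DESeq2 adjusted p = 0.024), and was at -0.0056 in M6stop (DESeq2 adjusted p = 0.98), per the authors' deposited table. eya (FBgn0000320, 2L from 6527447 to 6546976, minus strand) encodes Eyes absent, a nuclear protein that keeps main-body cells from polar fate. Its log2 fold change per the authors' deposited table was 0.41 in F9ΔNLS, a 1.33-fold rise (DESeq2 adjusted p = 0.042), and 0.02 in M6stop (DESeq2 adjusted p = 0.92). The zinc finger gene cas (FBgn0004878, 3R from 5712975 to 5716805, minus strand) acts in follicle stem cell progeny, polar cells and stalk cells. At a mean of 30.8 normalized counts, cas had log2 fold changes of -0.0047 in M6stop (DESeq2 adjusted p = 0.96) and 0.07 in F9ΔNLS (DESeq2 adjusted p = 0.65) per the authors' deposited table.

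Of the 3 genes of the switch out of the mitotic cycle, ct rose in F9ΔNLS and peb and ttk did not pass. Cut, a homeodomain protein of dividing follicle cells that Notch signalling turns off, is encoded by ct (FBgn0004198, X from 7608428 to 7678859, plus strand). In F9ΔNLS ct rose by 0.40, or 1.32-fold (DESeq2 adjusted p = 0.013), per the authors' deposited table. In M6stop the authors' deposited table lists 0.22 for ct (DESeq2 adjusted p = 0.18), the largest of the 10 values in that line and higher than that of 96.0% of tested genes. peb (FBgn0003053, X from 4617564 to 4627206, plus strand) encodes Hindsight, the zinc finger protein that Notch signalling turns on and that represses cut. Its log2 fold change was -0.14 in M6stop (DESeq2 adjusted p = 0.34) and 0.005 in F9ΔNLS (DESeq2 adjusted p = 0.98) per the authors' deposited table. The M6stop value of peb was the lowest of the 10, below that of 95.9% of tested genes, and did not pass. ttk (FBgn0003870, 3R from 31713867 to 31735392, plus strand) encodes Tramtrack, a BTB zinc finger repressor that acts at this switch and in later gene amplification. Its log2 fold change was 0.07 in M6stop (DESeq2 adjusted p = 0.57) and 0.12 in F9ΔNLS (DESeq2 adjusted p = 0.12) per the authors' deposited table.

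slbo (FBgn0005638, 2R from 24331522 to 24334307, minus strand) encodes the C/EBP factor that border cells need to migrate. It had a mean of 46.4 normalized counts, with log2 values of 0.05 in M6stop (DESeq2 adjusted p = 0.43) and 0.18 in F9ΔNLS (DESeq2 adjusted p = 0.28) per the authors' deposited table. slbo and cas are the only ones of the 10 with a mean under 50 normalized counts, where 6.95% of tested genes were called in F9ΔNLS, against 28.3% of genes with a higher mean. The other 8 genes include all 5 that rose.

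**Figure D3:**
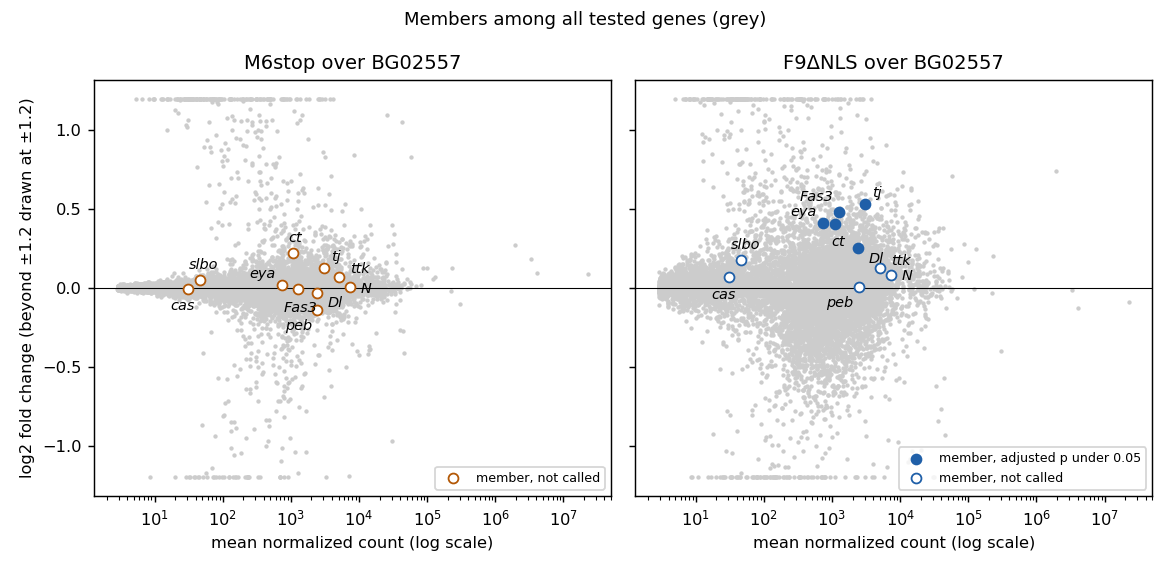
Log2 fold change over BG02557 (vertical axis, values beyond 1.2 in either direction drawn at the edge) against mean normalized count (log axis) for all 10662 tested genes (grey) and the 10 genes (circles, filled for an adjusted p under 0.05). In F9ΔNLS tj, Fas3, eya and ct lie above at least 94.6% of tested genes, and cas and slbo lie at mean counts of 30.8 and 46.4.

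Most of the machinery around the receptor was detected, and single steps held genes called in either direction in F9ΔNLS. The 5 Notch lists hold 49 genes besides N and Dl, of which 40 were tested. In M6stop 1 rose (2.5%, beside 3.48% of all tested genes) and 0 fell, beside 2.04%. In F9ΔNLS 7 rose (17.5%, against 11.6% of all tested genes) and 4 fell, against 11.9% of all tested genes. The median log2 fold change of the 40 genes in F9ΔNLS was 0.01, beside 0.004 over all tested genes, per the authors' deposited table.

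Among 5 further genes of the ligand side, fng rose in F9ΔNLS. Fringe is the sugar transferase that tunes which ligand Notch answers to, and its log2 value was 0.46 in F9ΔNLS (DESeq2 adjusted p = 0.037) and 0.008 in M6stop (DESeq2 adjusted p = 0.97) per the authors' deposited table. Ser, which encodes the other fly ligand, rose by 1.32 in M6stop (DESeq2 adjusted p = 0.033) at a mean of 16.7 normalized counts per the authors' deposited table. Its F9ΔNLS value was 0.14 (DESeq2 adjusted p = 0.26) per the authors' deposited table. The ubiquitin ligase gene neur, which acts on the ligand, had values of -0.11 in M6stop (DESeq2 adjusted p = 0.40) and -0.04 in F9ΔNLS (DESeq2 adjusted p = 0.77) per the authors' deposited table.

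rumi and O-fut1, whose products add sugars to the receptor as Fringe does, fell in F9ΔNLS. Of 9 genes of receptor maturation and cleavage other than N, 3 fell (33.3%, beside 11.9% of all tested genes) and 1 rose there (11.1%, beside 11.6%). The O-glucosyltransferase gene rumi fell by 0.65 (DESeq2 adjusted p = 4.4e-05) and O-fut1, the O-fucosyltransferase gene, fell by 0.39 (DESeq2 adjusted p = 0.0080) per the authors' deposited table. pen-2, a subunit gene of the gamma-secretase that cuts Notch, fell by 0.42 (DESeq2 adjusted p = 0.027), and the metalloprotease gene Kul rose by 0.40 (DESeq2 adjusted p = 0.046), per the authors' deposited table. The other gamma-secretase genes Psn (0.08), Nct (-0.02) and aph-1 (-0.25) did not pass in F9ΔNLS per the authors' deposited table. The M6stop values of all 9 lay between -0.15 and 0.0019 per the authors' deposited table. By DESeq2 0 of them were called there, beside 5.52% of all tested genes, with at least 1 at an unadjusted p under 0.05.

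Of 7 genes of the nuclear complex and its co-repressors, 1 fell in F9ΔNLS by DESeq2 (14.3%, beside 11.9% of all tested genes). In M6stop 0 of the 7 fell, beside 2.04% of all tested genes. At least 2 in F9ΔNLS and 1 in M6stop had an unadjusted p under 0.05. The gene that fell was insv, which encodes a co-repressor of Su(H), at -0.53 (DESeq2 adjusted p = 0.0072) per the authors' deposited table. Su(H) itself, the DNA-binding partner of Notch, had values of -0.11 in M6stop (DESeq2 adjusted p = 0.46) and -0.23 in F9ΔNLS (DESeq2 adjusted p = 0.12) per the authors' deposited table. Of 11 genes listed under endocytosis and turnover, 4 rose (36.4%, beside 11.6% of all tested genes) and 0 fell in F9ΔNLS. These were the ubiquitin ligase gene Su(dx) (0.26), the auxilin gene aux (0.25), sno (0.21) and the dynamin gene shi (0.14), with DESeq2 adjusted p from 6.5e-04 to 0.041 per the authors' deposited table. Of these, sno encodes a nuclear protein and belongs to the list only loosely. The list median was -0.04 in F9ΔNLS per the authors' deposited table, opposite in sign to the 4 calls.

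Most classical Notch target genes had very low counts in these ovaries. Of 17 listed, 9 had no adjusted p, with means of at most 0.882 normalized counts, and 3 of those were listed at 0. Only E(spl)m3-HLH (189) and E(spl)mbeta-HLH (113), basic helix-loop-helix repressor genes, exceeded a mean of 100 normalized counts per the authors' deposited table. Of the 8 tested, 1 rose in F9ΔNLS (12.5%, beside 11.6% of all tested genes). It was E(spl)m7-HLH, which rose by 0.96 (DESeq2 adjusted p = 0.035) at a mean of 13.5 normalized counts per the authors' deposited table. The F9ΔNLS values of E(spl)mbeta-HLH (0.31, DESeq2 adjusted p = 0.14) and E(spl)m3-HLH (0.19, DESeq2 adjusted p = 0.29) did not pass per the authors' deposited table.

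Cell cycle genes around the Notch-driven switch fell more often than they rose in F9ΔNLS. Of 15 tested, 8 fell and 2 rose there, beside 11.9% and 11.6% of all tested genes, and the median log2 fold change was -0.37 per the authors' deposited table. fzr, the activator of protein destruction that follicle cells need to leave the mitotic cycle, fell by 0.42 (DESeq2 adjusted p = 2.4e-04) per the authors' deposited table. Falls were also listed per the authors' deposited table for fzy (-0.60), the mitotic kinase gene Cdk1 (-0.44) and the repressive E2F gene E2f2 (-0.37). The growth regulator Myc rose in both lines, by 0.27 in M6stop (DESeq2 adjusted p = 0.0032) and by 0.45 in F9ΔNLS (DESeq2 adjusted p = 5.3e-08), and tara rose by 0.59 in F9ΔNLS, per the authors' deposited table. stg, the Cdc25 phosphatase gene that Notch represses at the switch, had values of -0.0013 in M6stop and -0.03 in F9ΔNLS (DESeq2 adjusted p = 0.85) per the authors' deposited table. These genes are also active in the germ line, which makes up most of the egg chamber, so their values are not those of follicle cells alone.

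In the JAK-STAT pathway, through which polar cells instruct border cells and stalk cells, no gene was called. Of 10 tested genes besides slbo, 0 passed in either line by DESeq2, beside 5.52% of all tested genes in M6stop and 23.4% in F9ΔNLS. At least 0 in M6stop and 3 in F9ΔNLS had an unadjusted p under 0.05. upd1, the ligand gene of polar cells, had a mean of 27.7 normalized counts and a value of 0.12 in F9ΔNLS (DESeq2 adjusted p = 0.43) per the authors' deposited table. Stat92E, the transcription factor gene, was at 0.05 in M6stop (DESeq2 adjusted p = 0.74) and 0.15 in F9ΔNLS (DESeq2 adjusted p = 0.14) per the authors' deposited table.

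Of 17 border cell genes besides slbo, 4 rose (23.5%, beside 11.6% of all tested genes) and 0 fell in F9ΔNLS, led by the adhesion gene Fas2 (0.70, DESeq2 adjusted p = 5.1e-05) and the GTPase gene Rac1 (0.26, DESeq2 adjusted p = 9.9e-05) per the authors' deposited table. The others were tai (0.28), a nuclear receptor coactivator gene, and the actin regulator gene SCAR (0.13) per the authors' deposited table. Of 11 polar and stalk cell genes outside the 10, 3 rose (27.3%) and 0 fell, namely Fas2, which is in both lists, and the laminin genes LanB1 (0.51) and LanA (0.46) per the authors' deposited table. Matrix genes of another list, vkg (0.59) and Col4a1 (0.59), also rose in F9ΔNLS per the authors' deposited table. The laminin rises are not read here as particular to polar and stalk cells. Of 20 tested main-body transcription factor genes, 3 rose (15%, beside 11.6% of all tested genes) and 0 fell in F9ΔNLS. They were mirr (0.61, DESeq2 adjusted p = 0.0057), br (0.40, DESeq2 adjusted p = 0.026) and pnt (0.33, DESeq2 adjusted p = 0.044) per the authors' deposited table, all 3 known from the patterning of the follicle epithelium. Their M6stop values were 0.0078 for mirr, 0.03 for br and -0.02 for pnt per the authors' deposited table, and none of the 3 passed there.

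Of 7 further somatic gonad genes, 1 rose in F9ΔNLS (14.3%, beside 11.6% of all tested genes), the piRNA helicase gene armi (0.35, DESeq2 adjusted p = 9.2e-04), per the authors' deposited table, and it is active in germ cells too. Of 16 tested genes of follicle stem cells and of Hedgehog and Wnt signalling, 3 rose (18.8%) and 4 fell (25%, beside 11.9% of all tested genes) in F9ΔNLS. The secreted signal gene hh rose in both lines, by 1.49 in M6stop (DESeq2 adjusted p = 0.0079) and by 0.98 in F9ΔNLS (DESeq2 adjusted p = 0.022), at a mean of 32.3 normalized counts per the authors' deposited table. The Wnt receptor gene fz2 (0.57) and the Hedgehog transcription factor gene ci (0.37) rose, and ihog (-0.30), a Hedgehog co-receptor gene, sgg (-0.17) and arm (-0.10) fell in F9ΔNLS per the authors' deposited table.

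Over all 12 Notch and follicle lists, without the 10 genes, 127 genes were tested. In M6stop 3 rose (2.36%, beside 3.48% of all tested genes) and 0 fell, beside 2.04%. In F9ΔNLS 22 rose (17.3%, beside 11.6%) and 16 fell (12.6%, beside 11.9%), with a median log2 fold change of 0.03 per the authors' deposited table. At a mean of 50 or more normalized counts 36 genes of these lists were called in F9ΔNLS, against 38 without that limit. Over all tested genes at that mean 28.3% were called in F9ΔNLS, above the 23.4% without the limit. The share of the list genes at that mean was not computed, so the 36 are not set against the 28.3%. The shares of all tested genes given beside each list are not matched for mean count.

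**Figure D4:**
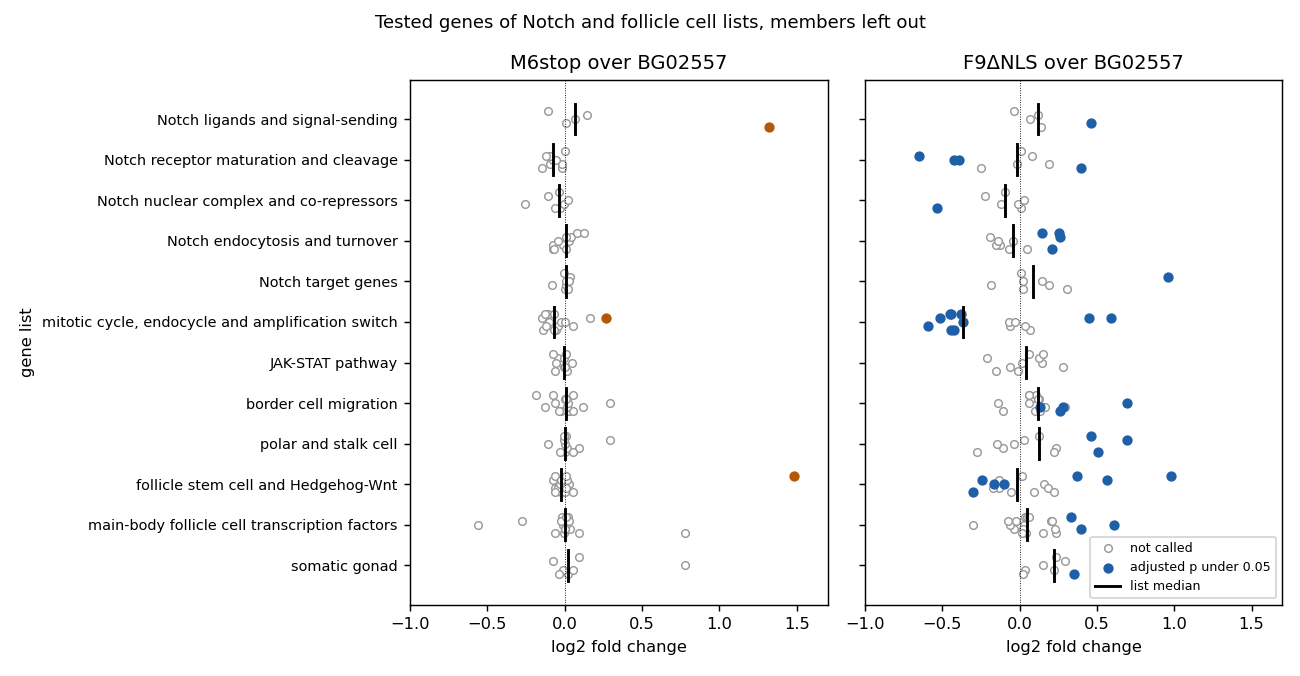
Log2 fold change over BG02557 (horizontal axis) of each tested gene in 12 Notch and follicle cell lists (rows, some genes stand in more than 1), without the 10 genes, in M6stop and F9ΔNLS, with filled points for an adjusted p under 0.05 and bars for list medians. In F9ΔNLS the cell cycle row runs from -0.60 to 0.59 with a median of -0.37, and in M6stop the filled points are Ser, Myc and hh.

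Markers of other cells in the dissected tissue moved beside these genes. Of 17 muscle genes 5 rose in M6stop (29.4%, beside 3.48% of all tested genes) and 11 in F9ΔNLS (64.7%, beside 11.6%). In either line 0 muscle genes fell, and the medians were 0.16 and 0.68 per the authors' deposited table. Mhc was at 0.50 in M6stop (DESeq2 adjusted p = 0.075) and rose by 0.81 in F9ΔNLS (DESeq2 adjusted p = 0.0036) per the authors' deposited table. Of 11 hemocyte genes 2 rose in M6stop (18.2%, beside 3.48%) and 5 in F9ΔNLS (45.5%, beside 11.6%), and 0 fell in either. Hml was called in both (2.14 in M6stop and 3.09 in F9ΔNLS), and Nplp2 rose in M6stop only (1.52), per the authors' deposited table. The other 4 that rose in F9ΔNLS were the matrix genes Pxn (1.61), Ppn (0.84), Col4a1 (0.59) and vkg (0.59) per the authors' deposited table, and the 6 that did not pass ranged from -0.30 to 0.07. Col4a1 and vkg had means of 7166 and 6714 normalized counts, against 53.1 for NimC1 and 24.8 for eater, which did not pass. Which cells the rises of the matrix genes came from was not tested, and these rises are not read here as a measure of hemocytes. Of 10 fat body genes 4 rose in M6stop (40%, beside 3.48% of all tested genes) and 3 in F9ΔNLS (30%, beside 11.6%). The genes differed between the lines, with apolpp, Apoltp, CG6910 and Obp99a in M6stop and Fbp1, Fbp2 and Lsp1alpha in F9ΔNLS. Of 15 germline genes 4 rose and 1 fell in F9ΔNLS, beside 11.6% and 11.9% of all tested genes. Rises were listed for aub (0.44, DESeq2 adjusted p = 3.5e-05), orb (0.40, DESeq2 adjusted p = 2.0e-04), osk (0.36) and ovo (0.19) per the authors' deposited table. The translational repressor gene nos fell by 0.60 in F9ΔNLS (DESeq2 adjusted p = 5.0e-04) per the authors' deposited table. The rises of aub, orb and osk were of a like size to those of the follicle cell genes ct and eya. Of the 15 germline genes 10 were not called in F9ΔNLS, and the median of the 15 there was 0.02 per the authors' deposited table. Beside it stood 0.21 for the 10 genes and 0.03 for the 127 other tested genes of the 12 lists, per the authors' deposited table. In F9ΔNLS 26.7% of the 15 rose, beside 17.3% of those 127. vas, a helicase gene of germ cells, was at 0.03 (DESeq2 adjusted p = 0.71) and bam, a gene of early cysts, at -0.14 (DESeq2 adjusted p = 0.30) in F9ΔNLS per the authors' deposited table. In M6stop 0 of the 15 were called by DESeq2, beside 5.52% of all tested genes, with at least 1 at an unadjusted p under 0.05. The part of any of these cell types in the rises of tj, Fas3, eya, ct and Dl was not tested.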

How the data were processed

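Paired-end libraries were made from ribosomal-RNA-depleted total RNA of ovaries, per the labels' protocols. The build BDGP6 and the tools DESeq2 1.25.10, DESeq, Salmon 1.3.0 and R 3.6.3 appear in the submitters' processing notes, with no roles given. The mean normalized count is a signal value that the authors made (counts divided by size factors, averaged over libraries, by the meaning DESeq2 gives such a column). The authors also made the log2 fold changes and the adjusted p-values, which were taken as deposited. Log base 2 was assumed, and shrinkage and the adjustment method are not stated in the headers.

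Another 9 columns hold values of single libraries under names that match no label, and none was used. The planned edgeR fits, the direct comparison of the mutant lines and the depth of each library were therefore not analysed here. The order of values between genes was set per kb (1000 bases) of merged exons from Ensembl release 115 (BDGP6.54), and all 10 genes had the same chromosome in both sources. Unadjusted p-values are upper bounds rebuilt as if Benjamini-Hochberg adjustment had been applied over the 10662 tested genes, a step tested on simulated data, so counts made from them are minimums. Of 198 list symbols 192 matched directly, 5 by a RefSeq synonym and 1 (cos) once letter case was ignored. The genes, lists and tests were chosen with earlier results of these data known. The 10 genes are all named, with up to 6 called genes per list by smallest adjusted p and preset defining genes. Of the muscle genes only the preset Mhc is named. Psn, Nct, aph-1, E(spl)m3-HLH and E(spl)mbeta-HLH were named after their values were seen. Python 3.11.15 with pandas 2.3.3 was used.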

Additional observations from a re-analysis of the deposited data

How the results depend on the processing

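The alternatives were an adjusted p limit of 0.01 or 0.1, a mean of at least 50 normalized counts and an absolute log2 fold change of at least 0.1. In F9ΔNLS 5 of the 10 genes were called, and 1 (tj) at 0.01. The count of 0 in M6stop was also 0 at 0.1. The other alternatives can only lower a count, so they could not change it. At 0.01 the calls over all genes were 351 in M6stop (against 589) and 1495 in F9ΔNLS (against 2497), and those over the 12 lists 20 in F9ΔNLS (against 38). The lists' count in M6stop, 3, was 7 at 0.1 and 1 at the higher mean. No paired analysis was possible because the library columns could not be tied to replicate numbers, and leaving out libraries, the replicate block and another normalization were not run for the same reason. cas and slbo have the lowest counts, and a change in them may not have been detectable.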
